A study of Mus musculus with 12 samples.

Results

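The milk fat globule and lipid droplet genes followed here were 7 named genes: Plin2, Plin3, Cidea, Xdh, Btn1a1, Muc1 and Mfge8, which encode proteins of cytoplasmic lipid droplets and of the membrane that wraps secreted milk fat. The rows were found by matching the Entrez identifiers of the deposited count table to mouse symbols. All 7 were found among the 27179 genes of the table, and all 7 were among the 15969 genes with enough counts for a test. The 12 libraries formed 6 groups of 2, namely luminal cells of virgin, day 18.5 pregnant and day 2 lactating mice, and basal cells of the same 3 stages. All animals were wild type FVB/N females without treatment, and cells were sorted by flow cytometry straight from the mammary gland. The labels give 2 mice per stage but no age and no sort markers, and p-values measure the spread between the 2 libraries of a group, pooled over the 6 groups.

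Luminal cells line the ducts and alveoli of the mammary gland and make milk, and basal cells, mostly contractile myoepithelium, lie around them. In an alveolar cell, triglyceride gathers in cytoplasmic droplets coated by perilipins, and the droplets travel to the apical surface. There they bud out wrapped in plasma membrane, and butyrophilin 1A1, xanthine oxidoreductase and perilipin 2 are the proteins best known for linking the droplet to that membrane. The wrapped droplet is the milk fat globule, and its outer face carries glycoproteins such as mucin 1 and lactadherin.

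Library totals lay between 20.02 M and 24.72 M counts, and replicates correlated at 0.9887 to 0.9921 (Pearson r of log2 levels across genes). By summed markers, the sorted populations matched their labels, though in lactation not every luminal marker set them apart. Summed levels of 6 luminal markers were 11114 to 11981 CPM (counts per 1000000, scaled by the trimmed mean of M-values, TMM) in virgin, 10259 to 12824 CPM in pregnant and 4171 to 4884 CPM in lactating luminal libraries, and 1123 to 1701 CPM in basal libraries. Summed levels of 6 basal markers were 52.1 to 77.2 CPM in virgin, 317 to 381 CPM in pregnant and 83.4 to 92.4 CPM in lactating luminal libraries, and 13154 to 43327 CPM in basal libraries. In lactating mice 4 of the 6 luminal markers were called higher in luminal than in basal cells, where 35.4% of all genes were. The other 2 were not called. Krt8 averaged 864 CPM in lactating luminal and 821 CPM in lactating basal cells, and Krt19 averaged 565 and 449 CPM. In virgin basal cells they averaged 342 and 93.9 CPM. Of the 6 luminal markers 5 were called lower in lactating against pregnant luminal cells, where 24.6% of all genes were. Of the 6 basal markers 5 were called higher in pregnant against virgin luminal cells, where 21.8% of all genes were. The part of these shifts in the changes below was not tested. Luminal libraries ran in lane 1 and basal libraries in lane 2, so lane and cell type cannot be told apart. Since these are bulk samples, fewer cells of a type and less RNA per cell cannot be told apart either.

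Milk protein transcripts took 40.02% and 39.16% of all counts in lactating luminal cells, which leaves fewer counts for every other gene. TMM scaling compensates for this under the assumption that most genes do not change. Without it, the median log2 change over all genes moved by -0.50 for luminal pregnant over virgin, by -0.85 for luminal lactating over pregnant and by -1.36 for luminal lactating over virgin. The same shift applies to the change of each gene named below. Levels and changes are TMM-scaled, and changes are relative to the bulk of the genes.

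Plin2 (Entrez 11520, RefSeq assembly GRCm38.p6, chr4:86626910-86670217, minus strand) encodes perilipin 2, the main coat protein of the cytoplasmic droplets of milk-secreting cells. In luminal cells it stood at 196 and 309 CPM in virgin, at 2681 and 3857 CPM in pregnant and at 1410 and 1596 CPM in lactating libraries. In basal cells it stood at 20.9 and 37.6 CPM in virgin, at 137 and 132 CPM in pregnant and at 41.2 and 44.6 CPM in lactating libraries. Both cell types therefore had their highest libraries in late pregnancy, and no 2 stages overlapped within a cell type.

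The luminal Plin2 change from virgin to pregnant was 3.69 on the log2 scale (SE 0.29, adjusted p = 6.36e-07), a 13-fold higher level in pregnancy. It then fell in lactating against pregnant luminal cells (log2 change -1.12, SE 0.26, adjusted p = 0.00342) and remained above the virgin level by 2.57 (SE 0.27, adjusted p = 4.22e-06). In basal cells Plin2 was higher in pregnant than in virgin libraries by 2.21 (SE 0.28, adjusted p = 1.11e-04) and lower in lactating than in pregnant libraries (log2 change -1.65, SE 0.27, adjusted p = 7.84e-04). The basal difference between lactating and virgin libraries, 0.55 (95% interval -0.03 to 1.14, adjusted p = 0.110), was not called. It was called with the replicate number as a block (0.60, adjusted p = 0.0278), and without basal virgin library 2 it was 1.03. Libraries of different stages come from different mice, so that block pairs none of the libraries compared here.

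Plin3 (Entrez 66905, chr17:56278962-56290511, minus strand) encodes perilipin 3, a perilipin found in most tissues that moves between the cytosol and droplets. Its luminal levels were 26.6 and 30.5 CPM in virgin, 46.1 and 59.5 CPM in pregnant and 51.1 and 41.4 CPM in lactating libraries. Its basal levels were 23.9 and 20.6 CPM in virgin, 30.8 and 34.1 CPM in pregnant and 45.9 and 47.9 CPM in lactating libraries. Plin3 thus moved over a narrow range, and the lactating libraries of the 2 cell types overlapped each other and the pregnant luminal ones.

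In luminal cells Plin3 was higher in pregnant than in virgin libraries by 0.89 (SE 0.14, adjusted p = 2.99e-04) and higher in lactating than in virgin libraries by 0.69 (SE 0.15, adjusted p = 0.00123). This last direction rests on the scaling: by library size alone the change was -0.67 and was called lower (adjusted p = 5.08e-04). Between lactating and pregnant luminal cells the change of -0.19 (95% interval -0.51 to 0.12, adjusted p = 0.303) was not called, and by library size alone it was called lower (-1.04). In basal cells Plin3 was higher by 0.54 in pregnant than in virgin libraries (SE 0.15, adjusted p = 0.0143), by 0.53 in lactating than in pregnant (SE 0.14, adjusted p = 0.0140) and by 1.07 in lactating than in virgin (SE 0.15, adjusted p = 9.2e-05). The first of these was lost without basal virgin library 2, without basal pregnant library 2 or by library size alone, and the second without basal pregnant library 1 or basal lactating library 2.

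RefSeq promoter windows were present for 4 of the 7 genes. The 250 bases before the start that the promoter table gives each perilipin gene are shown because this pair of droplet coat genes differed so widely in the size of its changes. For Plin2 the start used by the promoter table lies inside the gene span given above, so part of its window overlaps that span. Both windows are given 5′ to 3′ on the gene's strand, from GRCm38.p6 chr4:86670060-86670309 (minus) and chr17:56290512-56290761 (minus), and capitals mark GC boxes (GGGCGG on either strand).
Plin2: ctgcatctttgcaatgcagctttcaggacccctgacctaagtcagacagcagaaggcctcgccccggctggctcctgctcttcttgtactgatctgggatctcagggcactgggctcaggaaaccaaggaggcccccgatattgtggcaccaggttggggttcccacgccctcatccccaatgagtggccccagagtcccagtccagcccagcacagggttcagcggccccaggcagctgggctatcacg
Plin3: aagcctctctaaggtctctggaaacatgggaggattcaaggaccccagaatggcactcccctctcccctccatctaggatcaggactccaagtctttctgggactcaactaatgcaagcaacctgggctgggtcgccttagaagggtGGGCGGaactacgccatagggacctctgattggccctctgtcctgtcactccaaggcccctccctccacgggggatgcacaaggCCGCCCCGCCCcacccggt
The Plin3 window held 3 GC boxes, starting at -103, -19 and -14. Plin2 held none before the start and 1 after it, starting at +15. Counted to 50 bases after the start, both genes thus held a GC box. A single E-box, CACGTG, began at -4 in Plin2 and ran across the start. GGGCGG occurred in 35.7% and CACGTG in 7.15% of the 32851 RefSeq promoter windows, which run from 250 bases before to 50 bases after the start, and these motifs were chosen after the promoters had been seen.

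Cidea (Entrez 12683, chr18:67343564-67367794, plus strand) encodes a droplet-associated protein of the CIDE family that is known for promoting the growth of droplets. Its luminal levels were 3.51 and 5.33 CPM in virgin, 38.6 and 61.9 CPM in pregnant and 1342 and 1452 CPM in lactating libraries. Its basal levels were 0.383 and 0.189 CPM in virgin, 1.77 and 2.18 CPM in pregnant and 7.89 and 6.76 CPM in lactating libraries. The lowest of these, in basal virgin cells, rested on 11 and 5 counts, against 17555 and 19171 counts in lactating luminal cells.

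Cidea had the widest span of the 7 genes in luminal cells, with every stage apart from the next. The luminal change was 3.50 for pregnant over virgin (SE 0.24, adjusted p = 2.64e-07), 4.80 for lactating over pregnant (SE 0.24, adjusted p = 3.26e-08) and 8.30 for lactating over virgin (SE 0.28, adjusted p = 3.69e-10). The last corresponds to a 315-fold higher level. In basal cells the changes were 2.74 for pregnant over virgin (SE 0.47, adjusted p = 0.00100), 1.89 for lactating over pregnant (SE 0.29, adjusted p = 4.94e-04) and 4.64 for lactating over virgin (SE 0.39, adjusted p = 2.6e-06). With the luminal carry-over described below subtracted, the first was no longer called and the others turned negative (-7.01 and -5.25), with 0 counts left in lactating basal libraries.

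Xdh (Entrez 22436, chr17:73883895-73950397, minus strand) encodes xanthine oxidoreductase, a molybdenum enzyme of purine breakdown that is also a main protein of the globule membrane. Its luminal levels were 146 and 193 CPM in virgin, 810 and 1314 CPM in pregnant and 3128 and 3808 CPM in lactating libraries. Basal Xdh stood at 26 and 40.4 CPM in virgin, 99.0 and 124 CPM in pregnant and 96.6 and 82.2 CPM in lactating libraries. In luminal cells each stage lay above the one before, and in basal cells the 2 later stages lay above virgin.

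The luminal Xdh change was 2.65 for pregnant over virgin (SE 0.26, adjusted p = 4.99e-06), 1.71 for lactating over pregnant (SE 0.25, adjusted p = 1.31e-04) and 4.35 for lactating over virgin (SE 0.28, adjusted p = 5.47e-08), a 20.4-fold higher level. In basal cells Xdh was higher by 1.75 in pregnant than in virgin libraries (SE 0.26, adjusted p = 3.68e-04) and by 1.43 in lactating than in virgin libraries (SE 0.26, adjusted p = 6.73e-04). Its basal change between lactating and pregnant was -0.32 (95% interval -0.86 to 0.22, adjusted p = 0.349) and was not called.

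Btn1a1 (Entrez 12231, chr13:23456984-23465914, minus strand) encodes butyrophilin 1A1, a transmembrane protein of the immunoglobulin superfamily and the most abundant protein of the globule membrane in many species. Its luminal levels were 363 and 437 CPM in virgin, 1285 and 1452 CPM in pregnant and 5404 and 6000 CPM in lactating libraries. Basal libraries had 9.49 and 10.4 CPM in virgin, 44.6 and 29.7 CPM in pregnant and 21.8 and 22.5 CPM in lactating mice. Luminal Btn1a1 was highest in lactation and basal Btn1a1 in pregnancy, with no overlap between neighbouring groups.

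In luminal cells Btn1a1 rose by 1.77 in pregnant against virgin (SE 0.18, adjusted p = 5.54e-06), by 2.06 in lactating against pregnant (SE 0.18, adjusted p = 1.9e-06) and by 3.83 in lactating against virgin libraries (SE 0.19, adjusted p = 6.59e-09). In basal cells it was higher by 1.90 in pregnant than in virgin (SE 0.19, adjusted p = 2.34e-05) and by 1.16 in lactating than in virgin libraries (SE 0.19, adjusted p = 3.78e-04). With luminal carry-over subtracted, as described below, the first was no longer called. The second turned to -8.64, with 0 counts of Btn1a1 left in lactating basal libraries. Without that subtraction, Btn1a1 was lower in lactating than in pregnant basal libraries (log2 change -0.75, SE 0.18, adjusted p = 0.00822). This call was lost without basal pregnant library 1, the higher of that pair.

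Muc1 (Entrez 17829, chr3:89229056-89233381, plus strand) encodes mucin 1, a heavily glycosylated transmembrane protein of the apical surface. Its luminal levels were 90.5 and 84.6 CPM in virgin, 126 and 170 CPM in pregnant and 919 and 1078 CPM in lactating libraries. Its basal levels were 8.31 and 5.45 CPM in virgin, 6.68 and 6.14 CPM in pregnant and 7.44 and 8.78 CPM in lactating libraries. The luminal stages were apart, with most of the increase at lactation, while in basal cells the virgin libraries overlapped both later stages, and the lactating ones lay just above the pregnant ones.

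Luminal Muc1 was higher by 0.76 in pregnant than in virgin libraries (SE 0.17, adjusted p = 0.00344), and by library size alone this was 0.24 and not called (adjusted p = 0.223). It was higher by 2.76 in lactating than in pregnant (SE 0.18, adjusted p = 2.33e-07) and by 3.51 in lactating than in virgin libraries (SE 0.19, adjusted p = 1.17e-08). None of the 3 basal changes of Muc1 was called. They were -0.11 for pregnant over virgin (95% interval -0.56 to 0.35), 0.34 for lactating over pregnant (95% interval -0.12 to 0.80) and 0.23 for lactating over virgin (95% interval -0.22 to 0.69).

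Mfge8 (Entrez 17304, chr7:79133768-79149060, minus strand) encodes lactadherin, a secreted glycoprotein that binds phosphatidylserine and integrins and coats the globule. Its luminal levels were 2852 and 2392 CPM in virgin, 2441 and 3383 CPM in pregnant and 9359 and 11415 CPM in lactating libraries. Basal Mfge8 stood at 398 and 579 CPM in virgin, 668 and 692 CPM in pregnant and 899 and 879 CPM in lactating libraries. Mfge8 was already abundant in virgin luminal cells, where the virgin and pregnant libraries overlapped, and it was highest in lactation in both cell types.

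The luminal Mfge8 change for pregnant over virgin, 0.15 (95% interval -0.29 to 0.59, adjusted p = 0.573), was not called. Lactating luminal libraries were higher by 1.83 than pregnant ones (SE 0.21, adjusted p = 1.59e-05) and by 1.99 than virgin ones (SE 0.21, adjusted p = 3.9e-06). In basal cells the change was 0.48 for pregnant over virgin (95% interval 0.04 to 0.92, adjusted p = 0.0954), 0.39 for lactating over pregnant (95% interval -0.05 to 0.83, adjusted p = 0.163) and 0.86 for lactating over virgin (SE 0.20, adjusted p = 0.00398). The last of these passed the test, and the first did so with DESeq2 (0.49, adjusted p = 0.0472) and without basal virgin library 2 (0.77, adjusted p = 0.0243).

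The 250 bases before the starts of Muc1 and Mfge8 are shown because these globule glycoprotein genes shared their luminal rise at lactation and differed in pregnancy. They come from GRCm38.p6 chr3:89228806-89229055 (plus) and chr7:79149061-79149310 (minus), 5′ to 3′ on the gene's strand, with GC boxes (GGGCGG on either strand) and TATA boxes (TATAAA) in capitals.
Muc1: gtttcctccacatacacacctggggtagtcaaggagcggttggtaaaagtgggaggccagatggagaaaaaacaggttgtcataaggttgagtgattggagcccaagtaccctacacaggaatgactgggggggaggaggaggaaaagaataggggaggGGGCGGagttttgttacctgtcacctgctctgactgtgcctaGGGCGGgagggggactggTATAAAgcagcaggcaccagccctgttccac
Mfge8: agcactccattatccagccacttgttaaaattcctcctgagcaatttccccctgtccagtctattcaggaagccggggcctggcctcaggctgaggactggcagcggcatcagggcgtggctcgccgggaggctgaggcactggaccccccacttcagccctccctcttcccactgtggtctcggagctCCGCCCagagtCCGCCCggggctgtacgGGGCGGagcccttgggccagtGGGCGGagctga
Muc1 held TATAAA at -31, a motif found in 13.6% of all RefSeq promoter windows, and GC boxes at -91 and -49. Mfge8 held GC boxes at -61, -50, -33 and -12 and no TATAAA. The STAT5 motif TTCNNNGAA, on both strands, occurred in 8.3% of all windows, the PPAR direct repeat with a 1-base spacer in 0.0396% and the C/EBP motif TTGCGCAA in 0.183%. None of these 3 patterns was in the windows of Plin2, Plin3, Muc1 or Mfge8.

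**Figure D1:**
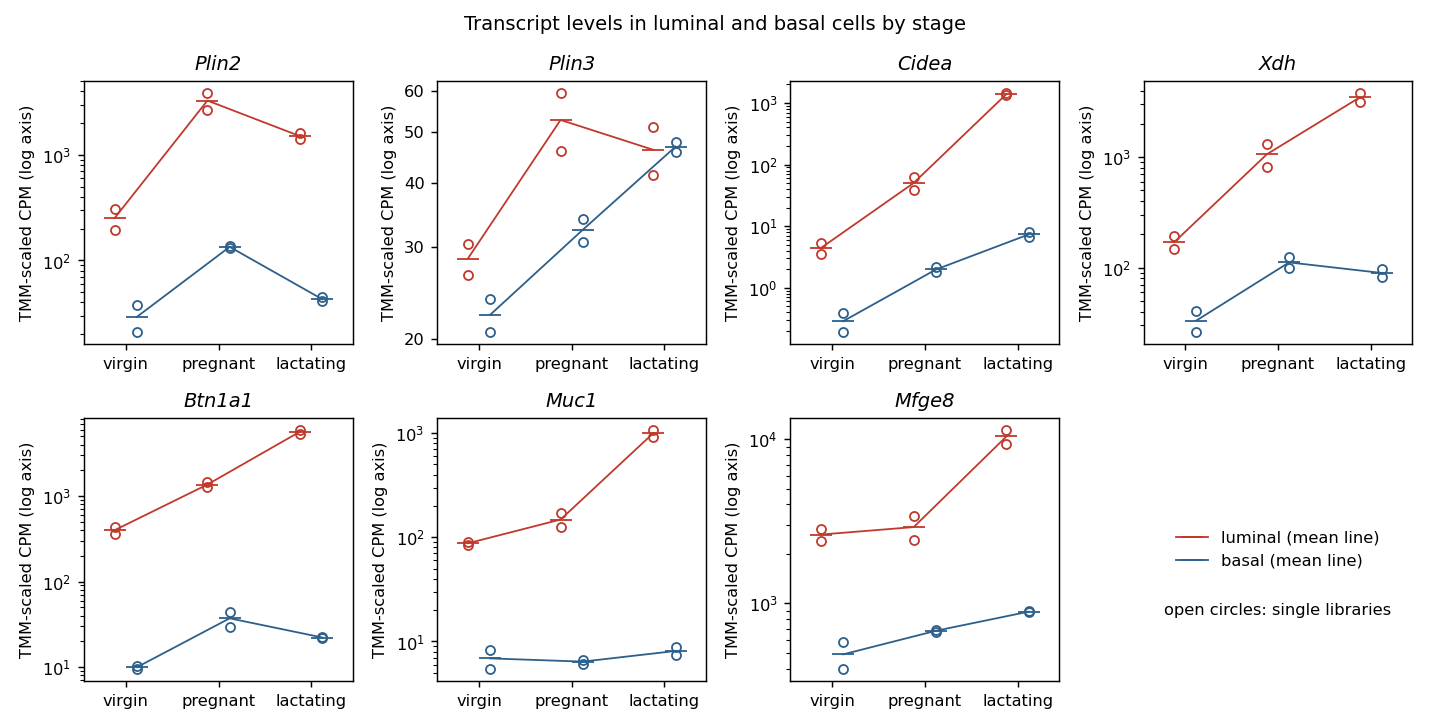
TMM-scaled CPM (log axis) of the 7 genes by stage, with open circles for single libraries and lines through the means of 2 libraries, luminal cells in red and basal cells in blue. Luminal Plin2 peaks in pregnancy at 2681 and 3857 CPM, luminal Cidea reaches 1342 and 1452 CPM in lactation, and the Plin3 panel spans a far narrower range than the others.

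Set side by side, Plin2 and Cidea had the largest luminal changes at the step into pregnancy, and Cidea and Muc1 at the step into lactation. In luminal pregnant against virgin cells, 6 of the 7 genes were called higher and 0 lower, all but Mfge8, in a comparison where 21.8% of all genes were called higher and 24.1% lower. Their median log2 change was 1.77, against -0.04 over all genes tested. In luminal lactating against pregnant cells, 5 were called higher and Plin2 lower, where 23.7% of all genes were called higher and 24.6% lower, and Plin3 was not called. In luminal lactating against virgin cells, all 7 were called higher, where 26.7% of all genes were called higher and 33.5% lower, with a median of 3.51 against -0.15 over all genes. The 2 steps share the pregnant libraries, and the values of one are not independent of those of the other.

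In basal pregnant against virgin cells, 5 of the 7 were called higher and 0 lower, where 15.6% of all genes were called higher and 14.4% lower, with a median of 1.75 against 0 over all genes. The others were Muc1 and Mfge8. In basal lactating against pregnant cells, Plin3 and Cidea were called higher and Plin2 and Btn1a1 lower, where 15.7% of all genes were called higher and 17.4% lower. In basal lactating against virgin cells, 5 were called higher, where 23.7% of all genes were called higher and 23.7% lower, and Plin2 and Muc1 were not called. With luminal carry-over subtracted, 3 were called higher in pregnant against virgin, 1 higher in lactating against pregnant, and 3 higher and 2 lower in lactating against virgin basal cells. The subtraction sets a count to 0 where the estimated carry-over exceeds it, as for Btn1a1 and Cidea in lactating basal libraries. Its calls of lower are therefore not measured falls in basal cells.

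**Figure D2:**
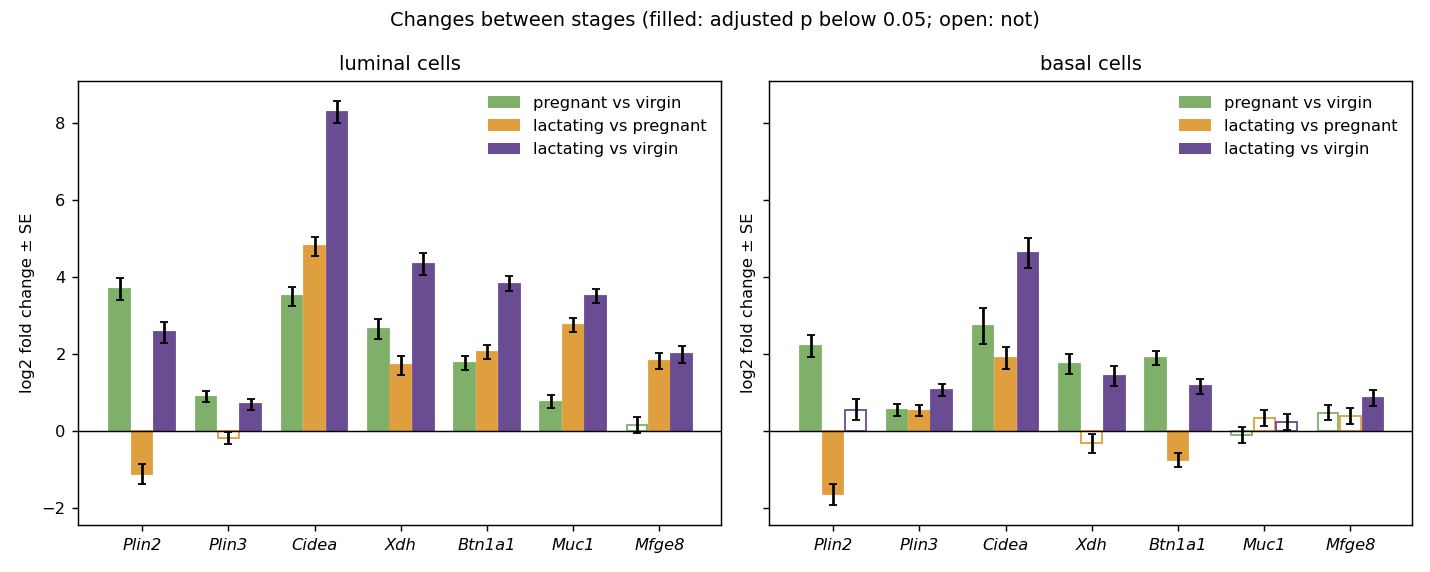
Log2 fold changes between stages with their standard errors, for luminal cells on the left and basal cells on the right, from 2 libraries per group. Filled bars passed an adjusted p of 0.05, and the luminal Cidea bar for lactating over virgin, 8.30, is the tallest.

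The pregnant luminal libraries differed from each other in a shared direction, since library 2 was above library 1 for all 7 genes. The share of all genes with that direction was not counted, so it is not shown to be particular to the 7. The SD of the pregnant luminal libraries was 832 CPM around a mean of 3269 CPM for Plin2 and 356 CPM around 1062 CPM for Xdh. As a share of all counts, the 7 genes together made up 0.5030% and 0.4709% of the virgin luminal libraries, 0.7455% and 0.9498% of the pregnant luminal ones and 1.144% and 1.359% of the lactating luminal ones. The basal shares were 0.06034% and 0.08417% for virgin, 0.1111% and 0.1093% for pregnant and 0.1160% and 0.1186% for lactating mice. The widest 95% Wilson interval of these shares, that of the higher lactating luminal library, ran from 1.355% to 1.364% and covers counting error only. The intervals of the 2 replicates overlapped for pregnant basal and for lactating basal libraries and were apart in the other groups.

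Per kilobase of the deposited gene length, the order of the 7 genes changed with the stage. In virgin luminal cells Mfge8 led at 1233 ± 153 CPM per kb, Plin2 followed at 134 ± 42.5 and Cidea was last at 3.80 ± 1.11 CPM per kb (SD, n = 2). In pregnant luminal cells Plin2 led at 1732 ± 441 CPM per kb with Mfge8 at 1370 ± 313 CPM per kb (SD, n = 2), a gap within the spread of the replicates. In lactating luminal cells Mfge8 led at 4886 ± 684 CPM per kb, and Btn1a1 at 1653 ± 122 and Cidea at 1200 ± 67.3 CPM per kb came next (SD, n = 2). Plin2 and Xdh, at 796 ± 69.9 and 756 ± 105 CPM per kb, were within each other's spread, and Muc1 at 447 ± 50.3 and Plin3 at 21.4 ± 3.17 CPM per kb came last (SD, n = 2).

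Luminal cells had more of these transcripts than basal cells at nearly every stage. All 7 genes were called higher in luminal than in basal cells in virgin mice, where 31.2% of all genes were called higher and 31.5% lower, and all 7 in pregnant mice, where 33.9% were called higher and 35.9% lower. In lactating mice 6 were called higher, where 35.4% of all genes were called higher and 39.2% lower, and Plin3 was not. The luminal over basal log2 change in lactating mice was 8.01 for Btn1a1 (SE 0.24), 7.57 for Cidea (SE 0.27), 6.94 for Muc1 (SE 0.23), 5.28 for Xdh (SE 0.30), 5.13 for Plin2 (SE 0.31) and 3.55 for Mfge8 (SE 0.22), all with an adjusted p of at most 1.25e-08. Plin3 averaged 46.2 ± 6.85 CPM in lactating luminal cells and 46.9 ± 1.38 CPM in lactating basal cells (SD, n = 2 each), and its log2 change of -0.02 had a 95% interval of -0.34 to 0.29, while by library size alone it was -1.02 and called lower. In virgin mice the Plin3 change was 0.36 (SE 0.15, adjusted p = 0.0473). That call was lost with DESeq2, with its size factors, with a minimum count of 50, with the replicate block, with only the 2 groups fitted and without any 1 of 6 libraries (luminal virgin 2, basal virgin 2, and all pregnant and lactating basal libraries).

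Basal libraries also held transcripts of milk proteins, which luminal cells make, so the basal level of each gene was set beside theirs as a percent of the luminal level. The 7 milk protein genes stood at 1.58% to 5.59% of the luminal level in virgin, at 2.48% to 4.79% in pregnant and at 0.518% to 0.868% in lactating mice. Basal Btn1a1 was at 2.49%, 2.72% and 0.389%, and basal Cidea at 6.46%, 3.93% and 0.524%, of the luminal level at these stages. Basal Muc1 was at 7.86%, 4.33% and 0.812%. These 3 genes were thus within or below the milk protein range in pregnancy and lactation. Basal Plin2 was at 11.6%, 4.13% and 2.85%, Xdh at 19.6%, 10.5% and 2.58% and Mfge8 at 18.6%, 23.3% and 8.56%. Xdh and Mfge8 stayed above the milk protein range at every stage, and Plin2 in virgin and lactating mice. Plin3, at 77.9%, 61.5% and 101%, had the highest basal share of the 7 genes at every stage.

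When the luminal share estimated from the milk proteins was subtracted from each basal library, basal Btn1a1 and Cidea had 0 of their counts left in both lactating libraries. There the estimated share exceeded their counts, which the subtraction then sets to 0. Basal Plin2 kept 28.7% and 49.6% of its counts in pregnant and 78.9% and 81.8% in lactating libraries. Basal Xdh kept 67.9% and 82.6% in pregnant and 79.2% and 77.2% in lactating libraries. Basal Muc1 kept 61.8% to 83.7% in virgin, 33.7% to 51% in pregnant and 22.3% to 38.7% in lactating libraries. Btn1a1 kept 5.54% to 35.2%, and Cidea 14.6% to 81.8% of 5 to 53 counts, in virgin and pregnant basal libraries. Basal Mfge8 kept 86.9% to 93.6% and basal Plin3 94.8% to 99.5% over the 6 basal libraries. With that subtraction the basal calls of Btn1a1 and Cidea for pregnant over virgin were lost, and so was the Plin2 call for lactating over pregnant (log2 change -0.63, adjusted p = 0.152). The basal changes of lactating over virgin turned negative for Btn1a1 (-8.64), Cidea (-5.25) and Muc1 (-1.06), and so did that of Cidea for lactating over pregnant (-7.01). Basal Plin2 was then higher by 1.12 in pregnant than in virgin libraries. Whether the basal signal of Btn1a1, Cidea and Muc1 comes from luminal cells or free luminal RNA was not tested.

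**Figure D3:**
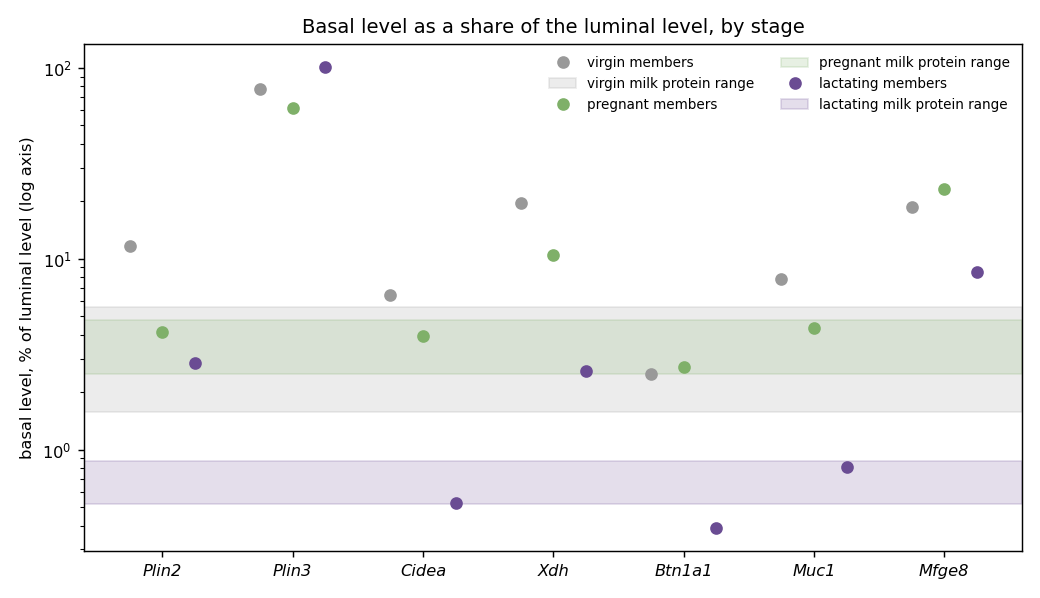
Basal level as a percent of the luminal level of the same stage (log axis) for the 7 genes, as dots in grey (virgin), green (pregnant) and purple (lactating), with bands for the range of 7 milk protein genes. Lactating Cidea and Muc1 lie inside the lactating band, Btn1a1 lies below it at 0.389%, and Plin3 lies far above every band.

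The changes between stages were also compared between the cell types in the same fit. At the step into pregnancy, the luminal change exceeded the basal change by 1.49 for Plin2 (SE 0.37, adjusted p = 0.00930) and by 0.86 for Muc1 (SE 0.27, adjusted p = 0.0309). These were 2 of the 7 genes, where 14% of all genes had a called higher luminal than basal change and 16.7% a called lower one. The Muc1 call was lost by library size alone (0.51) and in 6 fits that each left out 1 library (both virgin luminal, pregnant luminal 2, virgin basal 1 and both pregnant basal libraries), with values of 0.52 to 0.93. For Xdh the difference of 0.90 (95% interval 0.13 to 1.66, adjusted p = 0.0744) was not called. It was called with the replicate number as a block (0.86, adjusted p = 0.0278) and with the mouse as the block (0.85, adjusted p = 0.00505). Without luminal pregnant 1 the Xdh difference was 1.20, and without basal virgin 1 it was 1.18. The replicate number pairs no mice across stages, and the mouse block rests on a pairing that the labels do not state. The differences for Plin3, Cidea, Btn1a1 and Mfge8 were 0.34, 0.76, -0.13 and -0.32 and were not called.

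At the step from pregnancy to lactation, 5 of the 7 genes had a higher luminal than basal change by the test, where 18.3% of all genes did, and Plin3 had a lower one, where 18% of all genes did. The difference was 2.91 for Cidea (SE 0.37, adjusted p = 8.25e-05), 2.81 for Btn1a1 (SE 0.25, adjusted p = 8.61e-06) and 2.42 for Muc1 (SE 0.28, adjusted p = 3.77e-05). It was 2.03 for Xdh (SE 0.35, adjusted p = 7.69e-04) and 1.45 for Mfge8 (SE 0.29, adjusted p = 0.00180). For Plin3 it was -0.72 (SE 0.20, adjusted p = 0.0148), and that call was lost without luminal pregnant 2, luminal lactating 2 or basal pregnant 1. For Plin2, which fell in both cell types, it was 0.53 (95% interval -0.27 to 1.34, adjusted p = 0.292). The Plin2 difference was called with the mouse as the block (0.55, adjusted p = 0.0330), which rests on the same assumed pairing. All 7 milk protein genes were also called higher in this difference, with a median of 2.20. The luminal carry-over estimated for basal libraries was 3.85% and 2.35% in pregnant and 0.981% and 0.895% in lactating mice. The part of that carry-over in the differences of Cidea, Btn1a1 and Muc1 was not tested.

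Adipocytes are the other lipid-storing cells of the gland, and 6 of 8 markers for them, Adipoq and Plin1 included, were at or near 0. These 6, without Lipe and Lep, which were split off after their values were seen, summed to 0.0675 to 0.153 CPM in luminal libraries. In basal libraries they summed to 0.591 to 0.606 CPM in virgin, 1.22 to 1.98 CPM in pregnant and 2.25 to 2.73 CPM in lactating mice. Of the 5 adipocyte markers tested, 3 were called higher and 1 lower in lactating against virgin basal cells, against 23.7% and 23.7% of all genes. Lipe, hormone-sensitive lipase, which other cells also use, stood at 23.5 to 76.1 CPM in luminal and at 4.35 to 14.2 CPM in basal libraries. Lep, the leptin gene, was at 0 or 1 count in each luminal library, and in basal libraries it stood at 1.08 and 2.16 CPM in virgin, 14.5 and 62.6 CPM in pregnant and 58.6 and 40.7 CPM in lactating mice. Summed leukocyte markers (8 genes) were 8.03 to 17.3 CPM in all libraries. Summed endothelial markers (6 genes) were highest in virgin mice, at 41.3 to 63.6, 14.9 to 16.4 and 18.4 to 20.8 CPM in virgin, pregnant and lactating luminal libraries and at 181 to 296, 76.3 to 95.6 and 89.2 to 104 CPM in basal ones. Summed fibroblast markers (6 genes) were 236 to 384, 51.8 to 74.0 and 117 to 128 CPM in luminal and 186 to 268, 662 to 851 and 424 to 490 CPM in basal libraries at these stages. The part of these cells in the changes above was not tested.

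Most other genes of lipid droplets that could be tested were called higher in luminal pregnancy. Of 20 such genes 19 were in the table and 13 were tested, while Plin1, Cideb, Cidec, Fitm1, G0s2 and Hsd17b13 had too few counts. In luminal pregnant against virgin cells 9 of 13 were called higher and 0 lower, against 21.8% and 24.1% of all genes, led by the lipases Mgll (1.86, SE 0.26) and Pnpla2 (1.64, SE 0.15) and the lipase co-activator Abhd5 (1.45, SE 0.17). In luminal lactating against pregnant cells 5 were called higher and 5 lower, against 23.7% and 24.6% of all genes. The small GTPase gene Rab18 rose by 2.19 (SE 0.15), while Mgll changed by -2.02 (SE 0.26), the lipase inhibitor gene Hilpda by -1.62 (SE 0.23) and the perilipin gene Plin5 by -1.60 (SE 0.49). In luminal lactating against virgin cells 8 were called higher and 3 lower, against 26.7% and 33.5% of all genes, with a median of 0.98 against -0.15 over all genes. Rab18 averaged 1003 CPM in lactating and 162 CPM in virgin luminal cells, and Hilpda averaged 28.2 CPM in lactating and 116 CPM in virgin luminal cells. By library size alone the luminal lactating against virgin counts were 2 higher and 7 lower, where 931 of the 15969 genes tested were called higher and 12496 lower.

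In basal cells 3 of these 13 genes were called higher and 0 lower in pregnant against virgin libraries, 0 higher and 4 lower in lactating against pregnant, and 3 higher and 3 lower in lactating against virgin. Over all genes these shares were 15.6% and 14.4%, 15.7% and 17.4%, and 23.7% and 23.7%, so the basal counts of this list were near the background. The largest basal change was in the perilipin gene Plin4. Its basal levels were 5.43 and 12.6 CPM in virgin, 136 and 162 CPM in pregnant and 158 and 142 CPM in lactating libraries, against 1.33 to 3.04 CPM in all luminal libraries. The basal Plin4 change was 4.05 for pregnant over virgin (SE 0.32) and 4.06 for lactating over virgin (SE 0.32). Plin4 was thus the reverse of Plin2 in cell type, with the higher level in basal cells at every stage.

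Of 10 other genes for proteins of the globule membrane, 9 were called higher and 1 lower in luminal pregnant against virgin cells, 6 higher and 2 lower in lactating against pregnant, and 7 higher and 2 lower in lactating against virgin. Over all genes these shares were 21.8% and 24.1%, 23.7% and 24.6%, and 26.7% and 33.5%. The median of the last comparison was 3.91. Fabp3, a fatty acid binding protein, led with 10.02 (SE 0.25) in lactating over virgin luminal cells, at 2844 against 2.74 CPM. The phosphate transporter gene Slc34a2 rose by 7.04 (SE 0.23) and the fatty acid receptor gene Cd36 by 6.49 (SE 0.34) in the same comparison. The tetraspanin gene Cd9 changed by -0.89 (SE 0.12). The mucin gene Muc4 was higher in pregnancy and lower in lactation, with 1.63 in pregnant over virgin (SE 0.14), -2.50 in lactating over pregnant (SE 0.15) and -0.87 in lactating over virgin luminal cells (SE 0.15).

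In basal cells 7 of these 10 genes were called higher and 0 lower in pregnant against virgin libraries, 2 higher and 3 lower in lactating against pregnant, and 5 higher and 2 lower in lactating against virgin. Over all genes these shares were 15.6% and 14.4%, 15.7% and 17.4%, and 23.7% and 23.7%. With luminal carry-over subtracted, 3 rather than 7 were called higher at the first of these and 3 rather than 5 at the last. Fabp3 averaged 24 CPM in lactating and 1.56 CPM in virgin basal cells, against 2844 and 2.74 CPM in luminal cells. The part of luminal carry-over in its basal levels was not tested.

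**Figure D4:**
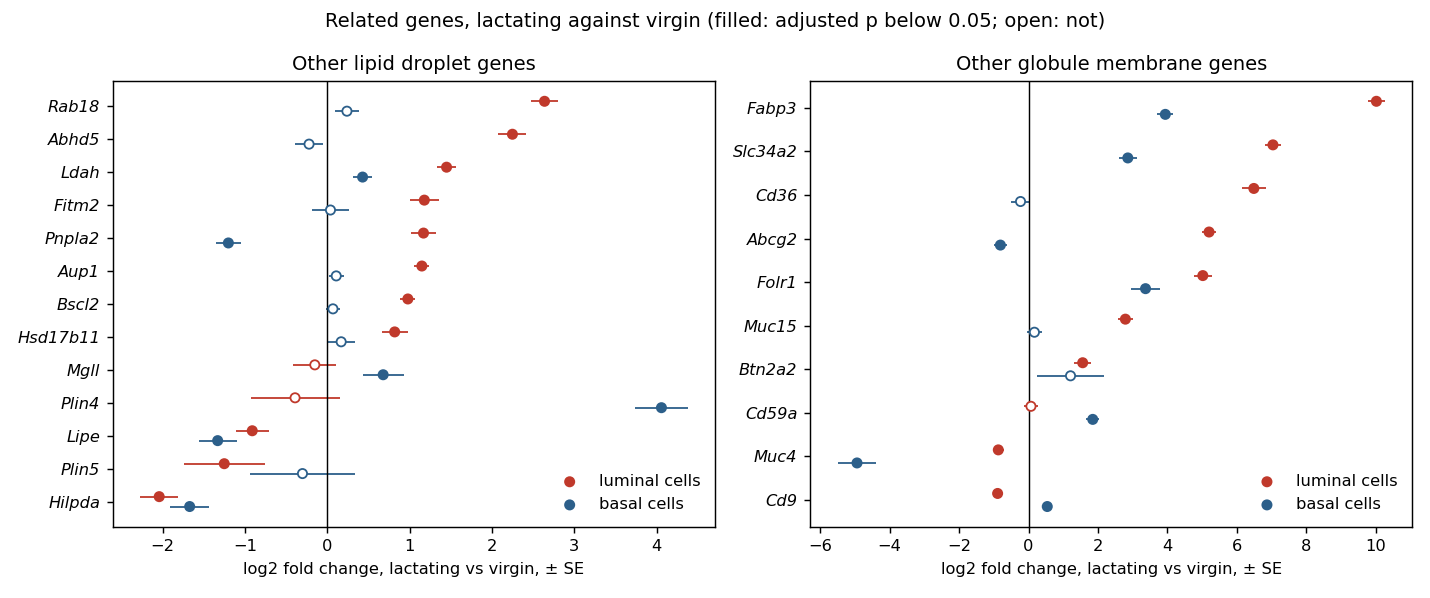
Log2 changes of lactating over virgin cells with standard errors for other lipid droplet genes (left) and other globule membrane genes (right), luminal in red and basal in blue, filled where the adjusted p was below 0.05. Luminal Fabp3 reaches 10.02 and basal Plin4 4.06, and the basal Muc4 value is a fitted value from 1 count in each lactating basal library.

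Genes whose products work with these proteins were also counted. Of 12 partner genes, 6 were called higher and 4 lower in luminal pregnant against virgin cells, 5 higher and 1 lower in lactating against pregnant, and 6 higher and 3 lower in lactating against virgin, against all-gene shares of 21.8% and 24.1%, 23.7% and 24.6%, and 26.7% and 33.5%. The first step of the molybdenum cofactor that xanthine oxidoreductase needs is run by the product of Mocs1, which rose by 4.55 (SE 0.12) in lactating over virgin luminal cells, at 329 against 14.0 CPM. Mocos, whose enzyme adds sulfur to that cofactor, rose by 1.52 (SE 0.17) in the same comparison. Of the related aldehyde oxidase genes, Aox3 rose by 4.50 (SE 0.48), at 9.93 against 0.427 CPM, and Aox1 changed by -2.24 (SE 0.46), at 1.48 against 7.03 CPM. Lactadherin binds αv integrins, and their subunit genes Itgb3 (-3.83, SE 0.29) and Itgav (-0.36, SE 0.10) were lower in lactating than in virgin luminal cells, with Itgb3 at 1.52 against 21.6 CPM. The third subunit gene of the list, Itgb5, was higher (0.34, SE 0.10), at 97.2 against 76.6 CPM. By library size alone 2 partner genes were called higher and 7 lower in that comparison, where 931 of the 15969 genes tested were called higher and 12496 lower. In basal cells the partner counts were 5 higher and 1 lower in pregnant against virgin, 1 and 1 in lactating against pregnant, and 5 and 1 in lactating against virgin libraries, where 15.6% and 14.4%, 15.7% and 17.4%, and 23.7% and 23.7% of all genes were called.

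Of 8 regulators of milk and fat genes, 5 were called higher and 2 lower in luminal pregnant against virgin cells, 6 higher and 0 lower in lactating against pregnant, and 5 higher and 1 lower in lactating against virgin. Over all genes these shares were 21.8% and 24.1%, 23.7% and 24.6%, and 26.7% and 33.5%. Insig1, a sterol sensor and target of SREBP factors, rose by 4.80 (SE 0.23) in lactating over virgin luminal cells. The alveolar transcription factor gene Elf5 rose by 3.11 (SE 0.18) and Srebf1, which encodes a main regulator of fat synthesis, by 2.46 (SE 0.26). The prolactin receptor gene Prlr was lower (-1.85, SE 0.17), at 299 CPM in lactating and 1075 CPM in virgin luminal cells. Pparg, a regulator of fat storage in adipocytes, was low in luminal cells, and its pregnant over virgin change was -1.90 (SE 0.47), at 0.470 against 1.76 CPM. In basal cells the counts were 1 higher and 3 lower, 2 higher and 3 lower, and 2 higher and 3 lower in the same order of comparisons, against all-gene shares of 15.6% and 14.4%, 15.7% and 17.4%, and 23.7% and 23.7%.

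The genes whose levels ran most like each of the 7 were found by the Pearson correlation of log2 CPM over the 12 libraries, among 10741 candidates, as a description over libraries that share cell type and stage. Plin2 ran closest with Ndfip2 (0.9891), Riok3 (0.9873) and Cox4i1 (0.9869). Plin3 had the least close companions, Rmdn1 (0.9331), Rab9 (0.9322) and Fbxo3 (0.9314). Cidea ran closest with Dnajb14 (0.9905), the fatty acid desaturase gene Scd1 (0.9904) and Isoc2a (0.9894). Xdh ran closest with Ndufa2 (0.9929), Saa1 (0.9923), whose reads may be shared with its close copy Saa2, and Hoga1 (0.9896). Btn1a1 ran closest with Ikzf1 (0.9960), the tight junction gene Cldn8 (0.9948) and the glycerol phosphate dehydrogenase gene Gpd1 (0.9947). Muc1 ran closest with Znrf2 (0.9975), Yipf6 (0.9955) and Gne (0.9949), which encodes the first enzyme of sialic acid synthesis. Mfge8 ran closest with Fundc1 (0.9916), the nucleotide sugar transporter gene Slc35a3 (0.9907) and Atp6v1g1 (0.9885). Of these 21 genes 19 were named again with a prior count of 0.5.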

How the data were processed

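RNA-seq counts of 12 libraries of sorted mammary luminal and basal cells were used. Read counts per Entrez gene and a gene length in bases were deposited by the authors in 1 table, whose headers name no normalisation. The submitters' processing notes name featureCounts, Subread 1.4.4 and CASAVA 1.8.2, with the builds mm10 and GRCm38. Strand setting and annotation version were not given in the sources used here. Single-library files matched the table with 0 of their counts differing. Symbols came from RefSeq (GRCm38.p6) for 25275 identifiers, and exons of the 7 genes overlapped other genes by 0% (GENCODE vM21). Genes passed filterByExpr with a minimum count of 10, which left 15969. Counts were compared with edgeR 4.0.16 in R 4.3.3 with its quasi-likelihood F-test, TMM factors and 1 model of 6 group means, and p-values were adjusted by Benjamini-Hochberg over all genes tested and called below 0.05. The SE is the absolute log2 change over the square root of F, fold changes place the first-named group over the second, and levels are TMM-scaled CPM. Identifiers without a symbol, 1904 in number, held 0.54% to 1.37% of counts and stayed in the tests.

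The members and gene lists were chosen with earlier results of these data known. All 7 members are named in each comparison, and of each list up to 3 called genes of the largest change per direction may be named, while Lipe and Lep, and the values of Muc4 outside lactating over virgin, were added after their values were seen. Of 104 list entries 103 matched a symbol. On simulated counts of luminal lactating against virgin cells (15344 genes), 200 genes were set to change. Of 87 changes of log2 size 1, 81.6% were recovered, and of 108 changes of log2 size 2, 98.1% were. Of the calls, 5.85% were false. In the measured comparison 26.7% of all genes were called higher and 33.5% lower. Recovery with that many changed genes was not tested, and neither was the share of false calls. Luminal and basal libraries that share a stage and a number deviated together from their group means (r of 0.251 for virgin, 0.325 for pregnant and 0.156 for lactating over 9197 genes), while the other pairs of groups ran from -0.25 to 0.136. By the rule set, all 3 same-stage values over 0.1, the numbers were taken to pair them, which the labels do not state. Pairs of groups from different stages, which share no mouse, reached -0.25 and 0.136, so a value over 0.1 cannot by itself show a shared mouse. The fits with the mouse as the block rest on this assumed pairing. The alternatives were DESeq2 1.42.0 and its size factors, library size alone, other filters, blocks for the replicate number or mouse, a fit of only the groups compared, leaving out each library, and subtracting the luminal carry-over estimated from milk proteins. Protein sequences were not used here.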

Additional observations from a re-analysis of the deposited data

Results flagged for a closer look

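Luminal and basal cells did not change alike by a test of the difference itself in 8 cases, each given as the luminal minus the basal log2 change from edgeR's quasi-likelihood fit with 2 libraries per group. At the step from virgin to pregnant, the difference was 1.49 for Plin2 and 0.86 for Muc1. At the step from pregnant to lactating, it was 2.91 for Cidea, 2.81 for Btn1a1, 2.42 for Muc1, 2.03 for Xdh, 1.45 for Mfge8 and -0.72 for Plin3. For Plin3 the basal level was called higher in lactating than in pregnant cells, while the luminal change was not called. The Plin3 call and the Muc1 call at the step into pregnancy were each lost in some fits that left out 1 library. After the carry-over subtraction, lactating basal libraries kept 0 counts of Btn1a1 and Cidea and 22.3% and 38.7% of those of Muc1. The part of carry-over in the differences of these 3 genes was not tested.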

How the results depend on the processing

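Of 1554 log2 changes of the 7 genes under the alternatives, 1485 kept their direction and their side of the threshold, 31 lost a call, 16 gained one and 22 reversed. Of the 61 called changes 47 stayed called in the same direction throughout, and the cause of the others was not tested unless the setting itself shows it. By library size alone, luminal lactating against pregnant had 2 genes called lower (1 with TMM), luminal lactating against virgin 1 lower (0 with TMM), luminal against basal in lactating mice 1 lower (0 with TMM) and the pregnancy step 1 gene with a larger luminal change (2 with TMM). That scaling turned the Mfge8 change of luminal pregnant over virgin to -0.36, the Plin3 change of luminal lactating over virgin to -0.67, and the luminal minus basal differences of Plin3 in pregnancy to -0.01 and of Plin2 in lactation to -0.26. Over all genes, calls higher and lower became 1212 and 8426 for luminal pregnant against virgin (3488 and 3847 with TMM), 1013 and 9584 for lactating against pregnant (3781 and 3935), 931 and 12496 for lactating against virgin (4263 and 5346), 1647 and 3486 for basal pregnant against virgin (2491 and 2303) and 2529 and 10207 for luminal against basal in lactating mice (5661 and 6253). For the luminal minus basal differences they became 1008 and 4614 in pregnancy (2242 and 2666) and 1012 and 7921 in lactation (2918 and 2869), and basal lactating against virgin had 2439 higher (3791). The Plin3 change of lactating luminal over basal cells became 0.01 with DESeq2, with its size factors and with only the groups compared.

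With the luminal carry-over subtracted, basal genes called higher were 3 for pregnant against virgin, 1 for lactating against pregnant and 3 for lactating against virgin, with 2 lower in the last. It reversed basal lactating over pregnant for Cidea (-7.01) and Muc1 (-0.11) and basal lactating over virgin for Btn1a1 (-8.64), Cidea (-5.25) and Muc1 (-1.06). These Btn1a1 and Cidea values depend on the prior count, since 0 counts were left in lactating basal libraries. It also turned the luminal minus basal differences of Btn1a1 in pregnancy to 1.53 and of Plin2 in lactation to -0.49. The replicate block, whose number pairs no mice across stages, changed the calls of Plin2 (basal lactating over virgin, 0.60) and Xdh (pregnancy difference, 0.86) to called. It lost that of Plin3 (luminal over basal in virgin mice), and by mouse, an assumed pairing, also called Plin2 in the lactation difference (0.55). It changed no other call. Leaving out 1 library gave 1 to 2 genes higher and 1 to 2 lower in basal lactating against pregnant cells, 1 to 2 with a larger luminal change in pregnancy and 0 to 1 with a smaller one in lactation. Changes that reversed there, none of them called, were luminal Mfge8 in pregnant over virgin (-0.11 to 0.36), luminal Plin3 in lactating over pregnant (-0.35 to 0.01), basal Muc1 in pregnant over virgin (-0.38 to 0.24) and in lactating over virgin (-0.04 to 0.57), Plin3 in lactating luminal over basal cells (-0.14 to 0.16) and the Btn1a1 pregnancy difference (-0.39 to 0.20). Over all genes, basal pregnant against virgin had 1598 higher and 1411 lower without basal pregnant library 2, and basal lactating against pregnant had 1146 and 1589 without basal pregnant library 1 and 1301 and 1505 without basal lactating library 2 (2508 and 2779 in full). Levels of Cidea in basal virgin cells rest on 11 and 5 counts, and 2 libraries per group limit the precision of every change.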
